A study of Mus musculus with 6 samples.

Results

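The genes described here encode the contractile apparatus of smooth muscle cells and myofibroblasts: the actins *Acta2* and *Actg2*, the actin-binding proteins *Tagln*, *Cnn1*, *Cnn2* and *Cald1*, the myosin subunits *Myl9*, *Myh9* and *Myh11*, and the filament nucleator *Lmod1*. They were listed by symbol and found through the GENCODE M21 annotation of GRCm38, and all 10 were among the 14548 genes in the files. RNA was sequenced from C2C12 cells, a mouse line of skeletal myoblasts grown in DMEM with fetal bovine serum, with 3 WT libraries and 3 MSTN-KO libraries. The MSTN-KO cells had been electroporated with a CRISPR/Cas9 plasmid against *Mstn* and are a single line, C11, so that other differences between this line and the WT cells cannot be told apart from the loss of *Mstn*. The labels give myoblasts of skeletal muscle as the cell type of all 6 libraries, and name C11 as strain also for WT, so the groups rest on the genotype in the labels. Nothing states that the 3 replicates of a group came from separate cultures, so p-values measure only the spread between these libraries.

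Smooth muscle contracts when myosin, whose regulatory light chain has been phosphorylated, pulls on filaments of smooth muscle actin. Calponin, caldesmon and transgelin bind these filaments and modulate the contraction or stabilise the filaments. Fibroblasts that turn into myofibroblasts build stress fibres containing *Acta2* actin, and immature skeletal myoblasts also express several of these genes. Transcription of many of them is driven by serum response factor (SRF) and its cofactors of the myocardin family, which act through a promoter element called the CArG box, and is raised by TGF-β, the family of secreted factors to which myostatin belongs.

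The genes did not move as a group. In the libraries labelled MSTN-KO, *Myl9*, *Tagln* and *Cnn1* fell, *Acta2*, *Cnn2* and *Lmod1* rose, and *Actg2*, *Myh9* and *Cald1* did not pass the test. The unit is FPKM, in which the fragments on a gene are set against gene length and library total, so levels can be compared between genes. The log2(FPKM + 1) values were compared with limma over the 10837 genes that reached 1 FPKM in any library, at a Benjamini-Hochberg adjusted p under 0.05. On this filter 9 of the 10 genes were tested, and *Myh11* was not. The 3 genes called higher stood beside 8.78% of all tested genes called higher, and the 3 called lower beside 8.96% called lower. *Lmod1* entered the test only through its MSTN-KO libraries and therefore had to differ, and of the other 8 tested genes 2 were called higher. All 3 lower genes had a log2 fold change below -1, which held for 2.25% of tested genes, and 0 of the higher genes were above 1, which held for 1.19%. The libraries of the groups did not overlap for 6 of the 9 tested genes, and for 37.4% of all tested genes. Without *Lmod1*, whose entry through the filter fixed this too, it was 5 of 8. The median log2 fold change of the 9 genes was -0.0093, against -0.0008 over all tested genes, while the median size of the change was 0.54 against 0.23.

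The libraries carried the markers of myoblasts, and only part of the markers of smooth muscle. Of 12 listed markers of vascular smooth muscle, 5 were under 1 FPKM in every library, among them *Myh11*, the smooth muscle myosin heavy chain, and *Myocd*, the gene of myocardin. The other 7 reached 1 FPKM, among them *Smtn* with a WT mean of 41.9 FPKM, *Notch3* with 27.2 FPKM and *Synpo2* with 8.29 FPKM. The summed level of the 12 was 651 to 918 FPKM in WT and 423 to 504 FPKM in MSTN-KO, of which *Des*, a gene that skeletal myoblasts also express, made up the largest share. All 7 myoblast markers in the files reached 1 FPKM, with sums of 1075 to 1542 FPKM in WT and 577 to 707 FPKM in MSTN-KO. *Des*, which is in both lists, and *Chrna1* had the highest levels of these. The markers did not move together. *Myog* (adjusted p = 3.98e-05 in limma), *Des*, *Chrna1* and *Myod1* were called lower, *Pax7* was called higher (adjusted p = 0.0415 in limma), and *Myf5* and *Musk* did not pass. Of 6 fibroblast markers in the files, *Pdgfra*, *Fap* and *Dpt* were under 1 FPKM throughout, and the sums were 183 to 256 FPKM in WT and 322 to 386 FPKM in MSTN-KO. *Col3a1* made up the largest share of these sums (217 ± 39.0 FPKM in WT and 346 ± 31.0 FPKM in MSTN-KO), while *Dcn* was lower in MSTN-KO (2.37 ± 0.777 and 1.04 ± 0.518 FPKM, adjusted p = 0.0454 in limma). The part of such cells in the results was not tested. The 5 endothelial markers in the files were each under 0.1 FPKM, and the 2 immune markers in the files summed to 0.702 to 2.44 FPKM over all libraries. *Mstn* itself lay between 0 and 0.0586 FPKM in the 6 libraries and did not separate the groups (exact permutation test over the libraries, two-sided, p = 0.3, where this design allows no p under 0.1), so its RNA gave no check of the labels. The FPKM values summed to between 723705 and 764524 in WT and between 856314 and 999579 in MSTN-KO, and the fragments behind each value are not given in the files.

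The upstream sequences of the changed genes are shown because SRF sites are the best known control element of this gene set. Promoter windows from RefSeq (GRCm38.p6) were matched for 7 of the 10 genes, with 2 windows for *Cald1* and none for *Actg2*, *Tagln* and *Myh11*, and the 250 bases before each start site were searched on both strands. A CArG box stood 56 bases before the start site in *Cnn2* and 161 bases before it in *Myl9*, and 1.47% of all 32851 RefSeq windows of this length held one. An element that departs from the CArG box by a G or C in its central part was found 84 and 34 bases before the start site in *Acta2* and 99 bases before it in *Myl9*, against 7.24% of windows. *Cnn2* and *Acta2*, which were higher in MSTN-KO, and *Myl9*, which was lower, are printed 5′ to 3′ on the strand of the gene, with these elements in capitals. For *Acta2*, whose RefSeq start site lies within the first GENCODE exon, the stretches are short.
Acta2, chr19:34255438-34255467, minus strand: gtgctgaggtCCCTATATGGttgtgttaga
Acta2, chr19:34255388-34255417, minus strand: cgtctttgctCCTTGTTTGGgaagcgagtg
Cnn2, chr10:79988350-79988583, plus strand: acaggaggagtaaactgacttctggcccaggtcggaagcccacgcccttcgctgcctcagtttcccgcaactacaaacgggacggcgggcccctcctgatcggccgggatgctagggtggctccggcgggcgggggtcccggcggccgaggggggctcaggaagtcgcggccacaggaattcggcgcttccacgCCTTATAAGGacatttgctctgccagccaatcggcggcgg
Myl9, chr2:156775214-156775419, plus strand: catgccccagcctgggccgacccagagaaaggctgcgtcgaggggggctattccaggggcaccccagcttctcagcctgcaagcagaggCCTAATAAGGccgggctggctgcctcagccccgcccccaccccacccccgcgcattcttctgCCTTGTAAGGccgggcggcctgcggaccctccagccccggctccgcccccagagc
An MCAT element (CATTCC on either strand), the binding sequence of TEAD factors, was found in *Acta2*, *Lmod1* and 1 window of *Cald1*, at 146, 130 and 153 bases before the start site, and in 12.64% of all windows. The letters of a TATA box (TATAAA on either strand) were found in *Myh9* and in the other window of *Cald1*, against 12.37% of all windows. They lay 123 bases before the start site in *Myh9*, on the strand opposite to the gene, and 186 bases before it in *Cald1*. Whether they act as a TATA box was not tested. In *Cnn1* no motif of these 4 kinds was found in the 250 bases, which says only that these letters are not in this window. Genes with a CArG box or a CArG-like element thus stood on both sides of the comparison.

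*Acta2*, the actin of smooth muscle and of myofibroblast stress fibres, was the most abundant of the genes in both groups (ENSMUSG00000035783, chromosome 19, 34241090 to 34255590, minus strand). Its level was 1126, 1115 and 1137 FPKM in WT replicates 1, 2 and 3 and 1537, 1353 and 1798 FPKM in the MSTN-KO replicates. Every MSTN-KO library lay above every WT library, and the MSTN-KO libraries were far more spread. The means were 1126 ± 10.8 FPKM (SD, n = 3) in WT and 1563 ± 224 FPKM in MSTN-KO, a 1.39-fold rise. The log2 fold change was 0.46 (standard error 0.14, 95% interval 0.16 to 0.77, adjusted p = 0.0372 in limma). In a bulk sample, a larger share of cells that express a gene and more RNA of it per cell cannot be told apart. The MSTN-KO libraries stood in the same order for *Acta2* as for the sum of all FPKM values, replicate 2 lowest and replicate 3 highest. As a share of its library's sum, *Acta2* took 0.149%, 0.154% and 0.149% in WT and 0.173%, 0.158% and 0.180% in MSTN-KO, which still did not overlap. The call was nonetheless lost with libraries scaled to an equal sum (log2 fold change 0.18, adjusted p = 0.133 in limma) and with quantile normalization (0.05, adjusted p = 0.655). With no filter on low values the adjusted p was 0.0752. It was 0.0976, 0.148 and 0.101 without WT replicates 1, 2 and 3 and 0.113 and 0.0666 without MSTN-KO replicates 1 and 3, while without MSTN-KO replicate 2 it was 0.00945.

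*Actg2*, the gamma actin of visceral smooth muscle, lay more than an order of magnitude lower (ENSMUSG00000059430, chromosome 6, 83512905 to 83536265, minus strand). Its level was 79.3, 73.9 and 86.4 FPKM in WT and 88.2, 75.4 and 99.6 FPKM in MSTN-KO. The groups overlapped, and the log2 fold change of 0.13 did not pass the test (95% interval -0.16 to 0.42, adjusted p = 0.539 in limma). *Acta2* shares 0.326% of its 50-base stretches with other genes, among them *Actg1*, and *Actg2* shares none.

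**Figure D1:**
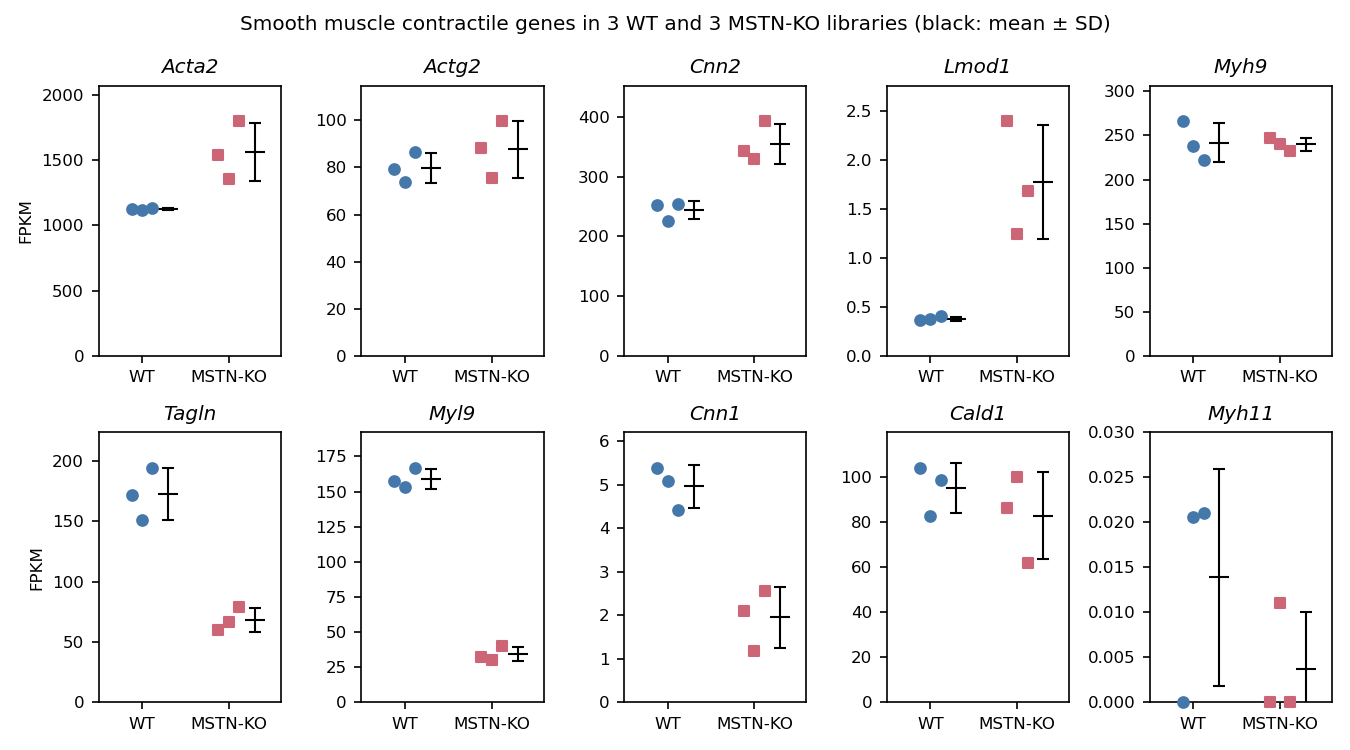
FPKM of the 10 genes in each library, 1 panel per gene, with WT libraries as circles and MSTN-KO libraries as squares in the order of their replicate numbers, and the mean ± SD (n = 3) in black beside them. Each vertical axis starts at 0 and has its own scale. The groups do not overlap in the panels of Acta2, Cnn2, Lmod1, Tagln, Myl9 and Cnn1, and Myh11 never exceeds 0.0211 FPKM.

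Among the proteins that bind the actin filament, *Tagln* and *Cnn1* fell and *Cnn2* rose. *Tagln* encodes transgelin (SM22), an early marker of smooth muscle cells (ENSMUSG00000032085, chromosome 9, 45929619 to 45936058, minus strand). It stood at 171, 151 and 194 FPKM in WT and at 59.6, 66.4 and 78.8 FPKM in MSTN-KO. The highest MSTN-KO library was well below the lowest WT library. The means were 172 ± 21.6 and 68.3 ± 9.72 FPKM, 2.53-fold lower in MSTN-KO, with a log2 fold change of -1.33 (standard error 0.14, 95% interval -1.63 to -1.02, adjusted p = 3.83e-05 in limma). The exons of *Tagln* overlap those of *Pcsk7* and of *Gm48529* on the opposite strand, and whether the counting used strand is not given in the sources used here. *Pcsk7* had 9.26 ± 0.566 FPKM in WT and 8.79 ± 0.414 FPKM in MSTN-KO, far under the level of *Tagln*.

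*Cnn1*, the calponin of differentiated smooth muscle, was low in these cells (ENSMUSG00000001349, chromosome 9, 22099216 to 22109630, plus strand). Its level was 5.40, 5.09 and 4.43 FPKM in WT and 2.11, 1.18 and 2.57 FPKM in MSTN-KO. The groups did not overlap, and MSTN-KO replicate 2 was the lowest. The means of 4.97 ± 0.492 and 1.95 ± 0.705 FPKM differed 2.54-fold, and the log2 fold change was -1.04 (standard error 0.19, adjusted p = 0.00277 in limma). At this level a pseudocount of 1 shrinks the change, which was -1.36 with a pseudocount of 0.1.

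*Cnn2*, the calponin of nonmuscle cells and of smooth muscle, changed the other way (ENSMUSG00000004665, chromosome 10, 79988584 to 79996062, plus strand). It stood at 252, 226 and 254 FPKM in WT and at 343, 329 and 393 FPKM in MSTN-KO. Each MSTN-KO library exceeded each WT library. The means were 244 ± 15.8 and 355 ± 33.4 FPKM, 1.45-fold higher in MSTN-KO, with a log2 fold change of 0.54 (standard error 0.12, 95% interval 0.27 to 0.81, adjusted p = 0.0108 in limma). The call was lost without WT replicate 2 (log2 fold change 0.48, adjusted p = 0.0801 in limma), and it was kept in the other 15 alternatives. The change was smaller with scaling to an equal sum (0.25, adjusted p = 0.0415 in limma) and with quantile normalization (0.35, adjusted p = 0.0172). The 95% intervals of *Cnn1*, from -1.45 to -0.63, and of *Cnn2* lay on opposite sides of 0.

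*Cald1*, the gene of caldesmon, which holds back the interaction of actin with myosin, showed no change that passed the test (ENSMUSG00000029761, chromosome 6, 34598500 to 34775473, plus strand). Its level was 104, 82.6 and 98.9 FPKM in WT and 86.3, 100.1 and 62.0 FPKM in MSTN-KO. MSTN-KO replicate 3 was the lowest of the 6 libraries and replicate 2 lay among the WT values. The log2 fold change was -0.22 with a 95% interval of -0.58 to 0.14 (adjusted p = 0.386 in limma). *Cald1* has 18 annotated transcripts, of smooth muscle and nonmuscle forms, which the gene-level values do not tell apart.

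Among the myosin subunits, the regulatory light chain *Myl9* fell and the heavy chain *Myh9* did not pass the test. *Myl9* encodes the light chain whose phosphorylation switches on myosin of smooth muscle and nonmuscle cells (ENSMUSG00000067818, chromosome 2, 156775420 to 156781658, plus strand). Its level was 157, 153 and 167 FPKM in WT and 32.5, 30.4 and 40.4 FPKM in MSTN-KO. Both groups were narrow and far apart. The means were 159 ± 7.15 and 34.4 ± 5.27 FPKM, 4.62-fold lower in MSTN-KO. The log2 fold change of -2.19 (standard error 0.13, 95% interval -2.47 to -1.90, adjusted p = 2.45e-07 in limma) was the 42nd lowest of the 10837 tested genes. By its mean level *Myl9* went from rank 628 of all genes in WT to rank 2691 in MSTN-KO.

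*Myh9*, the nonmuscle myosin heavy chain IIA that pulls on stress fibres, stood at 266, 238 and 222 FPKM in WT and at 247, 240.4 and 232 FPKM in MSTN-KO (ENSMUSG00000022443, chromosome 15, 77760587 to 77842175, minus strand). The 3 MSTN-KO libraries lay inside the range of the WT libraries. The log2 fold change was -0.01 (95% interval -0.27 to 0.25, adjusted p = 0.968 in limma). *Myh11*, the heavy chain particular to smooth muscle, was at 0, 0.0206 and 0.0211 FPKM in WT and at 0, 0.0111 and 0 FPKM in MSTN-KO, and no fold change is given (ENSMUSG00000018830, chromosome 16, 14194535 to 14291372, minus strand). The motor of smooth muscle was thus at or near 0 in both groups.

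*Lmod1*, leiomodin, which nucleates actin filaments in smooth muscle, was among the lowest of the genes (ENSMUSG00000048096, chromosome 1, 135324807 to 135368065, plus strand). Its level was 0.364, 0.372 and 0.403 FPKM in WT and 2.39, 1.25 and 1.68 FPKM in MSTN-KO. Every MSTN-KO library was above 1 FPKM and every WT library below it. The means were 0.380 ± 0.0205 and 1.77 ± 0.579 FPKM, a 4.67-fold difference. The log2 fold change was 0.99 with the pseudocount of 1 (standard error 0.19, adjusted p = 0.00325 in limma) and 1.92 with a pseudocount of 0.1. The call was kept without the filter on low values, where its passing the filter through the MSTN-KO libraries plays no part.

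**Figure D2:**
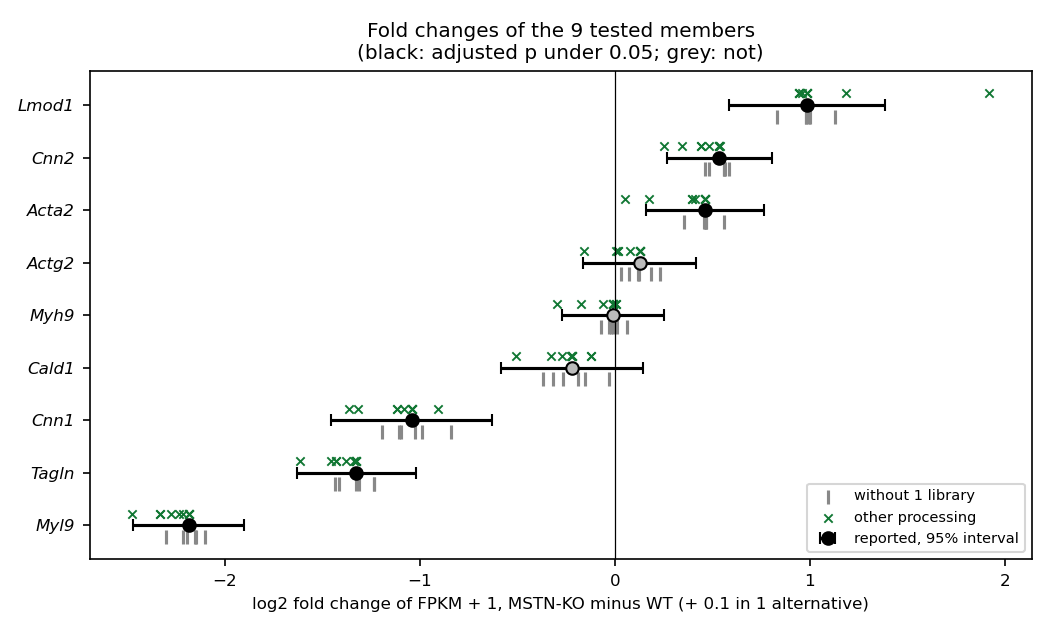
Log2 fold changes of FPKM + 1 (MSTN-KO minus WT) of the 9 tested genes, as circles with 95% intervals from limma, filled black where the adjusted p was under 0.05. Grey ticks give the value without 1 library and green crosses the value under other processing, 1 of them with a pseudocount of 0.1. Actg2 and Myh9 change side in at least 1 of the 16 alternatives and the other genes do not, while crosses of Acta2 at 0.05 and 0.18 approach 0. The side of Lmod1 was fixed by the filter on low values in every refit but that without a filter.

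The order of the genes by level differed between the groups below the top. In WT, *Acta2* at 1126 FPKM was followed by *Cnn2* (244 FPKM) and *Myh9* (242 FPKM), whose libraries overlapped. *Tagln* and *Myl9* came next and overlapped each other, then *Cald1* and *Actg2*, which also overlapped, and then *Cnn1*, *Lmod1* and *Myh11*, each apart from the one before. In MSTN-KO, *Acta2*, *Cnn2* and *Myh9* were followed by *Actg2*, *Cald1* and *Tagln*, which overlapped from one to the next, and only then by *Myl9*. *Cnn1* and *Lmod1*, which were apart in WT, overlapped in MSTN-KO. The 10 genes together held 0.283% to 0.286% of the summed FPKM in the WT libraries and 0.257% to 0.271% in the MSTN-KO libraries.

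Most of these proteins have a close relative in nonmuscle cells, so the make-up of each family was described as the share of its members' summed FPKM. These families were chosen after the values had been seen. Among 5 actins (*Acta2*, *Actg2*, *Actb*, *Actg1* and *Actc1*), *Acta2* held 13.95%, 13.90% and 13.62% in WT and 17.7%, 16.4% and 18.1% in MSTN-KO. The share of *Acta2* was higher in each MSTN-KO library than in any WT one (p = 0.1 in a two-sided exact permutation test, the smallest possible). *Actb*, the cytoplasmic beta actin, went from 36.8% ± 0.885 to 32.6% ± 0.349 (SD, n = 3 in each group), also without overlap. *Actg1*, the cytoplasmic gamma actin, stayed the largest at 47.8% ± 1.18 and 48.9% ± 1.03, with overlap. *Actc1*, the cardiac actin that embryonic skeletal muscle also uses, had 0.531% ± 0.361 in WT and 0.0255% ± 0.00539 in MSTN-KO. *Acta1*, the skeletal actin, was not analysed here.

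Each of the 3 genes that fell belongs to a family in which a broadly expressed relative was more abundant. This was not particular to them, as *Acta2* lay under *Actb* and *Actg1* in both groups and *Cnn2* lay under *Cnn3* in WT. *Myl9* held 10.9%, 9.80% and 11.6% of the summed FPKM of *Myl9* and *Myl12b* in WT and 2.90%, 2.82% and 3.08% in MSTN-KO. The sum of both went from 1481 ± 69.3 to 1170 ± 124 FPKM, and *Myl12b* alone did not pass the test (log2 fold change -0.22, adjusted p = 0.270 in limma). *Myl12a*, the other broadly expressed regulatory light chain, was not analysed here and is in neither sum nor share. *Tagln* held 14.6% ± 1.26 of the transgelins *Tagln* and *Tagln2* in WT and 7.40% ± 0.387 in MSTN-KO. *Tagln2*, the transgelin of nonmuscle cells, was the larger part in every library and had a log2 fold change of -0.25 (adjusted p = 0.222 in limma). Among the calponins, *Cnn2* took 44.02% ± 3.16 in WT and 57.8% ± 1.87 in MSTN-KO, *Cnn3* 55.1% ± 3.19 and 41.9% ± 1.97, and *Cnn1* 0.899% ± 0.117 and 0.316% ± 0.1004. *Cnn3* was thus the most abundant calponin in WT and *Cnn2* in MSTN-KO, and none of the 3 shares overlapped between the groups. *Myh9* made up 91.9% ± 0.812 of the heavy chains *Myh9*, *Myh10* and *Myh11* in WT and 95.03% ± 1.05 in MSTN-KO, with *Myh10* (nonmuscle IIB) as nearly all of the rest.

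**Figure D3:**
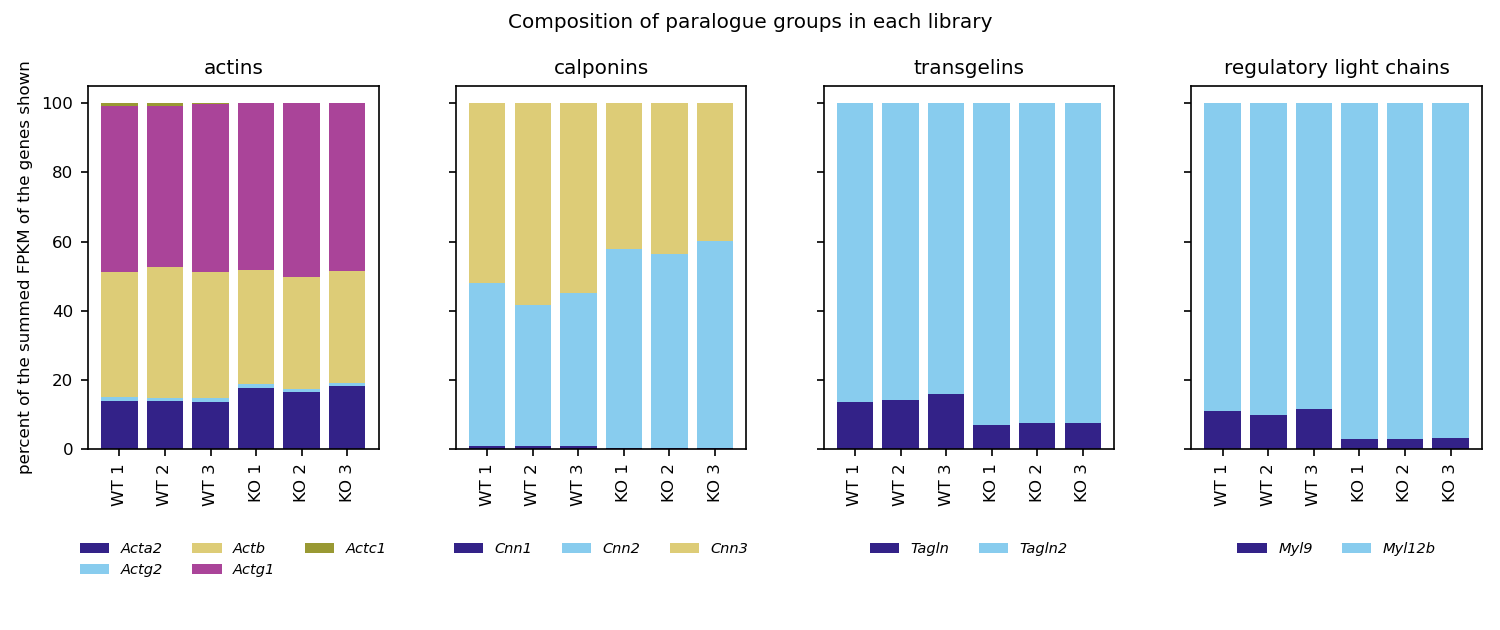
Share of each gene in the summed FPKM of its family, in percent, 1 stacked bar per library, for the actins, calponins, transgelins and regulatory light chains (Myl9 and Myl12b, with Myl12a not analysed here). The lowest segments, Acta2, Cnn1, Tagln and Myl9, do not overlap between groups, with Acta2 larger in the MSTN-KO bars and the other 3 smaller.

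The 6 changed genes each had the same direction in all 3 MSTN-KO libraries, and the size varied between these libraries. The genes were picked by the test on these same libraries, so the shared direction adds no support. For *Lmod1* the filter on low values fixed the direction too. Relative to the WT mean on the log2 scale, *Myl9* lay at -2.26, -2.35 and -1.95 in the MSTN-KO replicates and *Tagln* at -1.51, -1.36 and -1.11. *Acta2* lay at 0.45, 0.27 and 0.68, and *Cnn2* at 0.49, 0.43 and 0.69. In all 4 genes MSTN-KO replicate 3 had the highest value, the replicate with the highest sum of FPKM. *Cnn1* lay at -0.94, -1.45 and -0.74 in the MSTN-KO replicates, on the scale of log2(FPKM + 1), and *Lmod1* at 1.30, 0.70 and 0.96. The genes of striated muscle contraction differed widely between the WT libraries, and the listed genes did not. The median deviation of 14 striated muscle genes was 0.26, 0.57 and -0.97 in WT replicates 1, 2 and 3 and between -3.01 and -2.19 in MSTN-KO. In WT replicate 3, which was low for these genes, *Myl9* and *Tagln* were at 0.07 and 0.18 above the WT mean, *Acta2* at 0.01 above it and *Cnn1* at 0.13 below it (-0.13). In this 1 library *Myl9* and *Tagln* were thus not low, while *Cnn1* had its lowest WT value. Whether the changes of these genes are tied to those of the striated muscle genes was not tested.

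**Figure D4:**
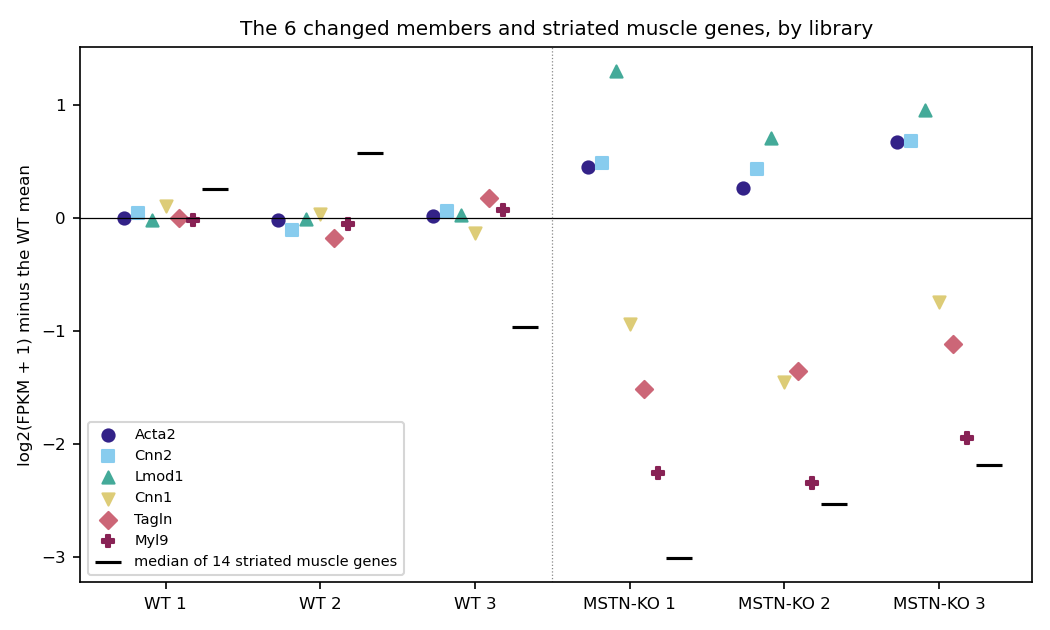
Deviation of log2(FPKM + 1) from the WT mean in each of the 6 libraries for the 6 changed genes (symbols) and for the median of 14 striated muscle genes (bars). The bar of WT replicate 3 lies at -0.97 while the symbols of all WT libraries stay between -0.18 and 0.18.

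Over the 6 libraries, the patterns most like that of *Acta2* were those of *Lsm7*, *Rpl37a* and *Trmt112*. Likeness was the root mean square difference of log2(FPKM + 1) after each gene's mean was subtracted, over 10327 genes with a mean of at least 1 FPKM, and it was 0.0162, 0.0172 and 0.0234 for these genes. Nearest to *Tagln* were *AU021092* (0.134), *Nrarp* (0.142) and *F2rl1* (0.143), at a greater distance. With 6 libraries in 2 groups, these distances mainly describe the size of the change and the spread within MSTN-KO.

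The other genes of the actomyosin machinery held calls in both directions, in numbers that depended on the scaling. Of 29 tested genes of stress fibres and smooth muscle filaments, 5 (17.2%) rose and 4 (13.8%) fell, beside 8.78% and 8.96% of all tested genes, with a median log2 fold change of -0.05. With quantile normalization 2 were called higher and 11 lower, and with scaling to an equal sum 1 higher and 15 lower. *Tpm2*, beta tropomyosin, which lies along the actin filament, rose from 249.6 ± 13.9 to 469 ± 92.0 FPKM (log2 fold change 0.89, adjusted p = 0.00144 in limma), and *Myl6*, the essential light chain paired with *Myl9* on the heavy chain, rose by 0.53 (adjusted p = 0.0364 in limma). *Flna*, *Palld* and *Fhl2* were the other genes called higher. *Fhl1*, a LIM protein abundant in skeletal muscle, fell by 0.91 on the log2 scale (adjusted p = 0.00318 in limma), and *Vcl* and *Myh10* were also called lower. *Vcl* lost its call without the filter on low values (adjusted p = 0.07945 in limma), without WT replicate 1 (0.0883) and without MSTN-KO replicate 3 (0.102). The calls of *Myl6*, *Flna*, *Palld* and *Fhl2* were near the threshold: the number of the list called higher was 1 without WT replicate 1, WT replicate 3 or MSTN-KO replicate 1, and 2 without WT replicate 2 or MSTN-KO replicate 3. *Actb* (log2 fold change -0.04, adjusted p = 0.855 in limma) and *Actg1* (0.16, adjusted p = 0.458) did not pass. *Actb* was called lower with quantile normalization (-0.44, adjusted p = 0.00318 in limma) and with scaling to an equal sum (-0.33, adjusted p = 0.0163). The sign of *Actg1* turned under both, and with quantile normalization it was called lower (-0.29, adjusted p = 0.01996 in limma).

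The genes that set the phosphorylation of the regulatory light chain were called higher at a share near that of all genes. Of 19 tested genes of this control, among them kinases, phosphatase subunits and calmodulins, 2 (10.5%) rose and 0 fell by limma's adjusted p, beside 8.78% and 8.96% of all tested genes, with a median of -0.01, and at an unadjusted p under 0.05 limma put 4 higher and 2 lower. *Mylk*, the myosin light chain kinase, was at 0.174, 0.175 and 0.0980 FPKM in WT and at 1.01, 0.604 and 0.565 FPKM in MSTN-KO. It was higher in each MSTN-KO library (log2 fold change 0.58, adjusted p = 0.0397 in limma), but it entered the test only through MSTN-KO replicate 1. *Ppp1r12c*, a targeting subunit of the myosin phosphatase, rose from 18.1 ± 1.88 to 25.7 ± 2.47 FPKM (log2 fold change 0.48, adjusted p = 0.0271 in limma). Neither was called without WT replicate 2, WT replicate 3 or MSTN-KO replicate 1, when the list held 0 genes called higher, and 1 remained called higher without WT replicate 1 or MSTN-KO replicate 3. Without MSTN-KO replicate 2, 2 genes of the list were called lower.

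The transcription factors upstream of the smooth muscle genes were called at shares near those of all tested genes, 8.33% higher and 8.33% lower beside 8.78% and 8.96%. Of 12 tested genes of the SRF axis, *Mef2b* rose (log2 fold change 0.66, adjusted p = 0.00721 in limma) and *Klf5* fell by 0.64 (adjusted p = 0.0105 in limma). *Mef2b* overlaps *Borcs8* on the same strand, and their reads may have been split between them. *Srf* had 35.4 ± 3.96 FPKM in WT and 41.1 ± 2.78 FPKM in MSTN-KO (log2 fold change 0.21, 95% interval -0.07 to 0.49, adjusted p = 0.273 in limma). *Mrtfa* and *Mrtfb*, the actin-sensing cofactors of SRF, had log2 fold changes of 0.05 (adjusted p = 0.853 in limma) and -0.49 (adjusted p = 0.0867 in limma), and *Mrtfb* passed without WT replicate 3 (adjusted p = 0.0356 in limma). *Myocd* was at most 0.277 FPKM in any library and was not tested.

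Among 12 tested TGF-β ligands, receptors, SMAD proteins and latency proteins, 1 (*Tgfbr3*) was called higher and 3 (*Tgfb2*, *Ltbp2* and *Smad2*) lower. The median was -0.08, and of all tested genes 8.78% were called higher and 8.96% lower. *Tgfbr3* was at 0.242, 0.166 and 0.103 FPKM in WT and at 1.08, 1.02 and 0.807 FPKM in MSTN-KO. It entered the test only through MSTN-KO libraries and so had to differ. *Tgfb2*, a ligand, went from 4.81 ± 0.405 to 2.37 ± 0.549 FPKM (log2 fold change -0.80, adjusted p = 0.00596 in limma), and *Ltbp2*, a matrix protein of the latent TGF-β binding family, fell by 0.65 (adjusted p = 0.0160 in limma). The call of *Smad2* was lost without WT replicate 1, WT replicate 2 or MSTN-KO replicate 3 (adjusted p 0.0716 to 0.103 in limma). It was also lost without the filter on low values (0.0535) and with the replicate block and the length and GC correction together (0.0612). The call of *Ltbp2* was lost without the filter (0.0524), without WT replicate 1 (0.0699) and without MSTN-KO replicate 1 (0.0714). *Tgfb1* was at 50.9, 42.3 and 41.0 FPKM in WT and at 60.7, 51.8 and 60.8 FPKM in MSTN-KO. The groups of *Tgfb1* did not overlap, but it did not pass (log2 fold change 0.36, adjusted p = 0.0751 in limma), except without WT replicate 1 (adjusted p = 0.0428) or MSTN-KO replicate 2 (adjusted p = 0.0457). The list had 2 genes called higher without either of these libraries, and 1 called lower without WT replicate 1.

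Matrix and surface genes of myofibroblasts also split. Of 16 tested, 5 (31.25%) rose and 3 (18.75%) fell, beside 8.78% and 8.96% of all tested genes, with a median of 0.12. *Pdgfrb*, a receptor of mural cells and activated fibroblasts, went from 7.69 ± 0.745 to 23.0 ± 2.65 FPKM (log2 fold change 1.46, adjusted p = 1.58e-05 in limma), and *Ccn1*, a matricellular protein and SRF target, rose by 0.91 (adjusted p = 0.000741 in limma). *S100a4*, *Col3a1* and *Thbs1* were also called higher. The call of *S100a4* was lost without the filter on low values (adjusted p = 0.111 in limma). It was also lost without WT replicate 1, 2 or 3 or MSTN-KO replicate 1 (0.0619 to 0.0864). With quantile normalization and with scaling to an equal sum, *Col3a1* (0.0608 and 0.102) and *Thbs1* (0.0647 and 0.149) lost theirs. *Thbs1* was also not called without WT replicate 2 (0.0835) or MSTN-KO replicate 1 (0.0656). *Postn*, periostin, fell by 0.82 from a level of 2.19 ± 0.377 FPKM (adjusted p = 0.0150 in limma), and *Tnc*, tenascin C, was also called lower (log2 fold change -0.42, adjusted p = 0.0423 in limma). The call of *Tnc* was lost without any 1 library other than WT replicate 1 (adjusted p 0.0625 to 0.151 in limma), without the filter on low values (0.0599), without the trend in the variance prior (0.0687) and with the length and GC correction (0.110). Of this matrix list, 3 were called higher without WT replicate 2 or MSTN-KO replicate 1, and 1 called lower without MSTN-KO replicate 3.

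The striated muscle counterparts moved in 1 direction. Beside 8.96% of all tested genes, all 14 tested genes of this list were called lower, with a median log2 fold change of -2.65. Of these, *Myh1*, *Myh3*, *Lmod2* and *Lmod3* reached 1 FPKM in WT libraries only and so had to be lower. *Mylpf*, the regulatory light chain of fast skeletal muscle and so the striated counterpart of *Myl9*, had a log2 fold change of -4.02 (adjusted p = 2.15e-05 in limma), and *Tnni1*, slow troponin I, of -3.76. *Actc1* fell from 52.4, 65.6 and 10.5 FPKM in WT to 1.94, 2.62 and 2.21 FPKM in MSTN-KO (log2 fold change -3.41). The changes of *Myl9*, *Tagln* and *Cnn1* had the sign of this list and those of *Acta2*, *Cnn2* and *Lmod1* the opposite sign.

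**Figure D5:**
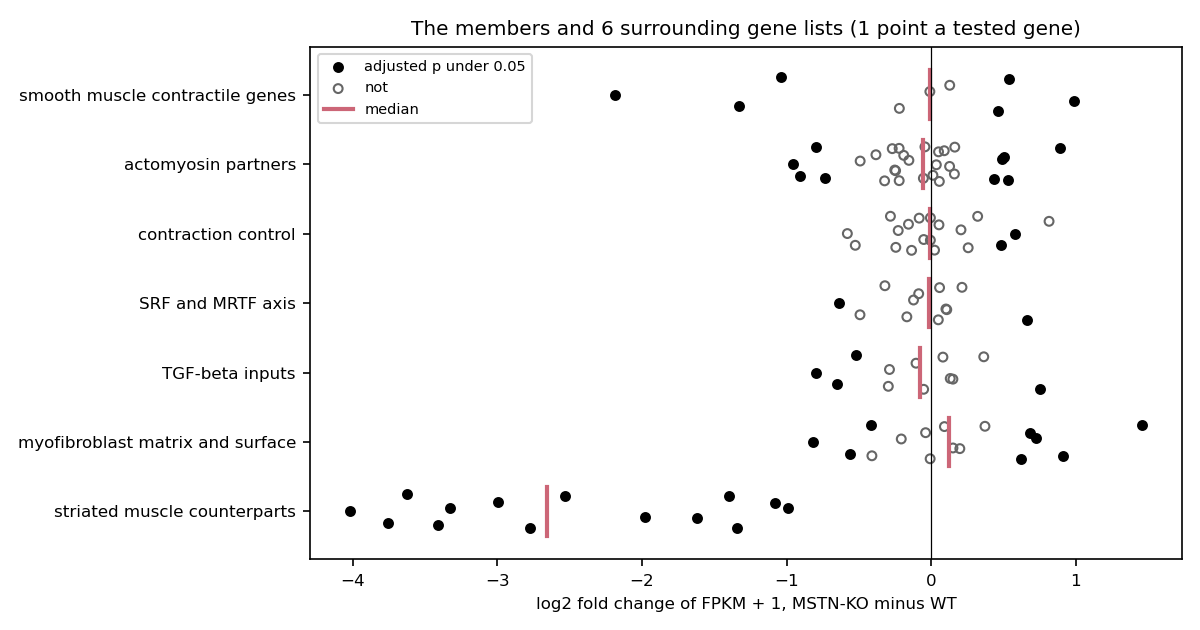
Log2 fold change of FPKM + 1 (MSTN-KO minus WT) of each tested gene in the smooth muscle contractile set and in 6 surrounding gene lists, filled where the limma adjusted p was under 0.05, with the median of each list as a bar. The bars of the smooth muscle set and of the first 5 lists lie between -0.08 and 0.12, and that of the striated counterparts at -2.65.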

How the data were processed

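RNA of C2C12 cells, extracted with Trizol, was sequenced by the authors on an Illumina HiSeq instrument, in 3 WT and 3 MSTN-KO libraries. FPKM values per gene were computed and deposited by the authors, 1 library a file, for 14548 genes, without pooling replicates. The submitters' processing notes name Bowtie 0.12.2 and mm8, with no role. The annotation, the counting tool and its use of strand are not given in the sources used here. FPKM divides by the fragments of a library, so a few abundant genes can shift all others. Without fragment counts no counting interval could be given.

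Symbols and positions came from GENCODE M21 (GRCm38) by Ensembl identifier, and 14445 identifiers matched. Positions are thus not on the build of the notes. The log2(FPKM + 1) values of genes that reached 1 FPKM in any library were fitted with limma 3.58.1 (R 4.3.3), with the group as the only term and eBayes with a trend, and p-values were two-sided and adjusted by Benjamini-Hochberg over all 10837 genes at 0.05. A change on this scale understates that of low genes. On simulated data of 10837 genes, 80 of 100 genes changed by 1 on the log2 scale were recovered, 97 of 100 changed by 2, and 6 of 10637 unchanged genes were called. Other steps used Python 3.11.15, pandas 2.3.3 and scipy 1.17.1.

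The listed genes, the 6 surrounding lists and the 5 marker lists were chosen with earlier results of these data known. Named were all 10 genes; from each surrounding list the 2 largest rises and 2 largest falls that passed with a mean of at least 1 FPKM; *Srf*, *Mrtfa*, *Mrtfb*, *Myocd*, *Mylk*, *Actb*, *Actg1*, *Acta1*, *Actc1* and *Tgfb1*; and the 3 nearest patterns to *Acta2* and *Tagln*. Some genes that this rule names are not reported here. Other genes that make up a count of calls, the paralogues and *Pcsk7* were named after their values were seen. Alternatives were a pseudocount of 0.1, no filter, a filter on the mean, no trend, quantile normalization, scaling of each library to an equal percentile 75 or an equal sum of 1000000, a length and GC correction by mgcv 1.9.3, a replicate block alone or together with it, and leaving out each library.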

Additional observations from a re-analysis of the deposited data

How the results depend on the processing

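Each of the 9 tested genes was refitted under 16 alternatives. *Tagln*, *Cnn1*, *Myl9* and *Lmod1* kept their direction and their call in all 16, with log2 fold changes of -1.61 to -1.23, -1.36 to -0.84, -2.47 to -2.10 and 0.83 to 1.92. *Lmod1* met the filter on low values only through its MSTN-KO libraries. Only its refit without a filter (adjusted p = 0.00773 in limma) was free of this, and the others add no support. *Acta2* was called in 8 of the 16. Its log2 fold change was 0.46 without the filter on low values, 0.0534 with quantile normalization and 0.18 with scaling to a sum of 1000000, all 3 without a call, and 0.36 to 0.56 with 1 library left out. *Cnn2* had a smaller log2 fold change of 0.35 with quantile normalization and 0.25 with scaling to a sum of 1000000, both still called. It ranged from 0.46 to 0.59 with 1 library left out. *Cnn2* lost its call only without WT replicate 2, when 1 of the listed genes was called higher in place of 3 (range 1 to 3 over the 6 libraries). The genes that were not called changed sign in 5 refits. *Actg2* had -0.16 with scaling to a sum of 1000000, *Myh9* 0.0083 with the length and GC correction, with and without the replicate block, and -0.07 to 0.0611 with 1 library left out. Scaling to a sum of 1000000 moved the median of all genes to -0.26, and relative to that median *Actg2* was at 0.10 and *Acta2* at 0.43. As a share of the library sum, *Actg2* and *Myh9* were lower in every MSTN-KO library than in any WT library.

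Numbers of calls moved more. With scaling to a sum of 1000000, 350 of all genes were called higher and 2367 lower, against 952 and 971. With 1 library left out the ranges were 419 to 1175 higher and 611 to 1233 lower, the lowest without WT replicate 2. Among the actomyosin partners the number called higher was 3 without the filter, 2 with quantile normalization, 1 with scaling to 1000000 and 1 to 5 with a library left out, and the number called lower was 11 with quantile normalization, 15 with scaling to 1000000 and 10 with the length and GC correction, also together with the block. For contraction control the number higher was 1 with the filter on the mean and 1 with scaling to 1000000, and 0 to 3 with a library left out. The number lower was 1 with quantile normalization, 3 with scaling to 1000000, 1 with the replicate block and 0 to 2 with a library left out. In the SRF axis scaling to 1000000 gave 0 higher and 2 lower, and 1 to 2 were lower with a library left out. Among the TGF-β genes 1 was lower without the filter and 0 higher with the filter on the mean, with 1 to 2 higher and 1 to 3 lower when a library was left out. Of the matrix genes 3 were higher with quantile normalization and 3 with scaling to 1000000, and 3 to 5 were higher and 1 to 3 lower with a library left out. Among other named genes, *Actg1* turned to -0.29 with quantile normalization and -0.12 with scaling to 1000000, *Srf* to -0.0665 and *Mrtfa* to -0.23 with scaling to 1000000, and *Mrtfa* to -0.0004 with the percentile 75. With a library left out, *Actb* ranged from -0.11 to 0.0145 and *Mrtfa* from -0.10 to 0.22. The cause of these changes was not tested. The other named genes outside the listed set kept their direction and call in 457 refits, lost a call in 72, gained one in 6 and turned in the 7 given above.

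Replicates are numbered 1 to 3 in each group, but nothing ties equal numbers together. Deviations from the group means correlated at -0.0153, -0.1278 and -0.1421 between libraries of equal number. The replicate block changed no call of the 9 genes and gave 939 higher and 1001 lower of all genes. *Mylk* lost its call under it (adjusted p = 0.0576 in limma).

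With 3 libraries a group and 1 MSTN-KO line, differences between lines cannot be told apart from the loss of *Mstn*, and no single-gene permutation test can go below 0.1. *Myh11*, *Lmod1* and *Mylk* lie at levels where few fragments stand behind a value.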
